A study of Mus musculus with 28 samples.

Results

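The features described here are the 150 that stood highest in CD23+ B cells relative to 2 other splenic B cell subsets of wild-type (WT) mice, out of 40303 features counted in every library. They were chosen from the WT libraries alone. CPM values (a feature's count divided by the library total and multiplied by 1000000) were averaged within each subset, and 250 features had a CD23+ mean from 10 to 4000 CPM and a ratio of the CD23+ mean to the mean in age-associated B cells above 2. The score was the CD23+ mean plus 1 CPM divided by the higher of the other 2 subset means plus 1 CPM, and the 150 highest scores were kept. The score ran from 6.38 at rank 1 through a median of 2.71 to 2.16 at rank 150.

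RNA was sequenced from 28 libraries of B cells sorted from the spleens of female mice, in a study of lupus-like disease after deletion of Xist, the noncoding RNA that coats the inactive X and silences it. Sorting separated CD23+ B cells from CD11c+ age-associated B cells, here ABC, and from long-lived plasma cells (B220- CD138+), here LLPC. Mice were either WT, all labelled with low dsDNA, or Xist cKO, a conditional knockout in B cells, labelled with low or high dsDNA ("cKO low" and "cKO high"). CD23+ cells gave 6 WT, 3 cKO low and 3 cKO high libraries, ABC gave 4 WT and 3 cKO high libraries, and LLPC gave 6 WT and 3 cKO high libraries. The high dsDNA mice were described by the submitters as carrying lupus pathology, and the cKO low and WT mice as healthy and matched for age and sex. The sources used here give neither the age nor the strain nor the Cre driver. Since cKO low libraries were used here for CD23+ cells alone, genotype and disease label cannot be told apart in ABC and LLPC.

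CD23 is the low-affinity receptor for IgE and marks the resting, recirculating follicular B cells that make up most of the B cells of the spleen. Age-associated B cells carry the integrin CD11c, accumulate with age and in lupus, and are antigen-experienced. Plasma cells devote most of their transcription to immunoglobulin and switch off much of the B cell program during their differentiation. Antibodies to double-stranded DNA are a hallmark of lupus and are made by cells of the plasma cell lineage.

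None of the 150 feature IDs matched a gene in the annotation tables used here, so no gene name, sequence or position was given to a member, and members are called by their rank of score. The defining markers of each subset and the level of Xist were for the same reason not analysed here. Library totals ran from 2133489 to 23866710 counts. Gene lengths were not used here, so levels are compared between samples and not between features. The library of CD23+ WT replicate 6 held a count in 29517 features, against 16913 to 18879 in the other 5 libraries of that group, and the choice of members and the spread of the variable members are given with and without it.

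**Figure D1:**
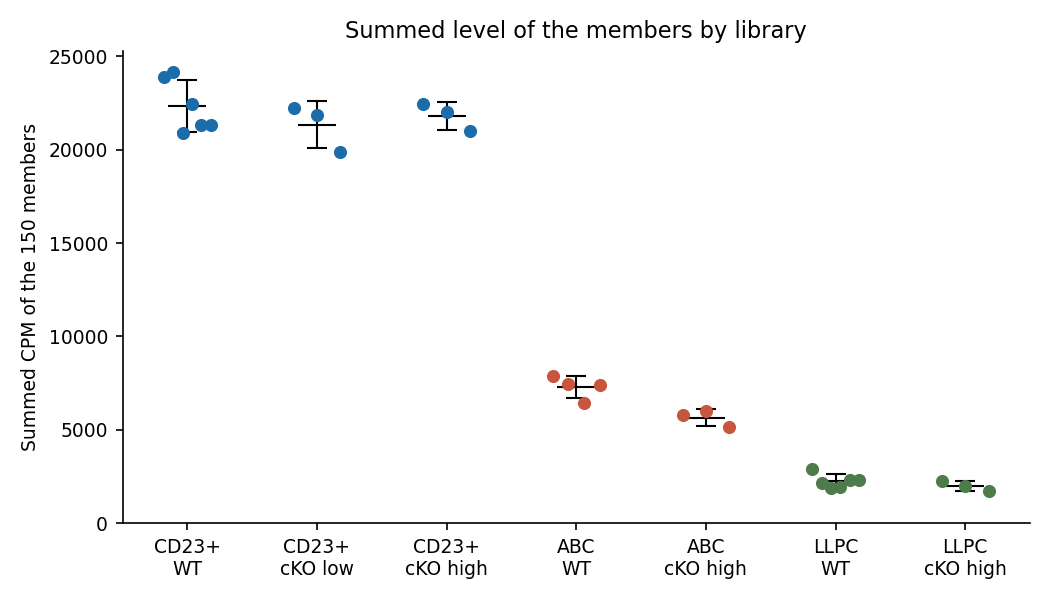
Summed CPM of the 150 members in each of the 28 libraries, by group. Points are libraries, and the bar with whiskers is the mean ± SD. All 12 CD23+ libraries lay between 19887 and 24176 CPM, the 4 ABC WT libraries between 6460 and 7895 CPM, the 3 ABC cKO high libraries between 5146 and 6028 CPM, and the 9 LLPC libraries between 1718 and 2904 CPM.

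In the WT libraries that chose them, the members together took 22344 CPM ± 1406 (SD, n = 6) of each CD23+ library, or 2.23% of the counts. The same members took 7301 CPM ± 604 (SD, n = 4) in ABC and 2245 CPM ± 369 (SD, n = 6) in LLPC. The 5 members with the most counts made up 24.7% of the CD23+ sum. These WT differences follow from the choice and carry no test. At single members, the mean level in ABC was a median of 34.6% of the CD23+ mean, with a range from 11% to 45.6%. In LLPC the median was 9.90%, with a range from 0% to 39.9%. LLPC held 51 members below 5% of the CD23+ level, 66 between 5% and 20% and 33 above 20%. The ABC mean exceeded the LLPC mean in 141 members and the reverse held in 9. All 6 CD23+ WT libraries lay above all 10 WT libraries of the other subsets in 128 of the 150 members. That count also follows from the choice, and the share of all features was not counted in WT. The edge of the set was narrow. Ranks 149 and 150 scored 2.162 and 2.160, and the 2 features just outside scored 2.160 and 2.159.

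Rank 1 (MGP_BALBcJ_G0024541) had 27.7 to 38.01 (median 34.1) CPM in CD23+ WT. It had 3.70, 8.68, 1.41 and 3.80 CPM in the 4 ABC WT libraries and 0 to 0.395 (median 0) CPM in LLPC WT. In the cKO high libraries, which had no part in the choice, it stood at 44.3, 35.8 and 33.5 CPM in CD23+, 0.659, 1.41 and 0.762 CPM in ABC and 0.154, 0 and 0 CPM in LLPC. No CD23+ library overlapped an ABC or LLPC library, and 4 of the 6 LLPC WT libraries held no count of it. The edgeR quasi-likelihood test on the 9 cKO high libraries gave ABC lower than CD23+ (log2 difference -5.55, SE 0.329, adjusted p = 4.75e-09) and LLPC lower still (log2 difference -8.19, SE 0.483, adjusted p = 5.18e-10). With LLPC at 0.154, 0 and 0 CPM, the size of its difference is near the floor of the counts and is only rough. Rank 2 (MGP_BALBcJ_G0000908) had 23.9 to 39.6 (median 27.9) CPM in CD23+ WT, 4.27, 3.58, 3.43 and 4.90 CPM in ABC WT and 0.779 to 2.50 (median 1.22) CPM in LLPC WT. In cKO high it had 61.5, 34.6 and 26.7 CPM in CD23+, 7.80, 0.937 and 3.43 CPM in ABC and 0.307, 0.359 and 0 CPM in LLPC. Every CD23+ library again lay above every library of the other subsets, and its cKO high replicate 1 was the highest of 3 in both CD23+ and ABC.

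Rank 3 stood at 661 to 978 (median 844) CPM in CD23+ WT and 771, 723 and 873 CPM in CD23+ cKO high. ABC held 188, 153, 74.5 and 151 CPM in WT and 39.99, 44.5 and 33.5 CPM in cKO high. LLPC held 0.566 to 15.3 (median 1.30) CPM in WT, where replicate 1 gave the highest value and the next was 1.84 CPM, and 0.768, 0.359 and 0.844 CPM in cKO high. In cKO high, rank 3 had the smallest adjusted p of all members against both subsets (ABC log2 difference -4.37, SE 0.136, adjusted p = 9.16e-12, LLPC log2 difference -9.24, SE 0.208, adjusted p = 2.75e-14, edgeR). Rank 4 ran the same way, with 85.9 to 171 (median 142) CPM in CD23+ WT, 25.9, 27.4, 17.1 and 22.4 CPM in ABC WT and 0.283 to 4.52 (median 1.58) CPM in LLPC WT. Its cKO high libraries held 112, 86.97 and 105 CPM in CD23+, 6.26, 7.03 and 6.09 CPM in ABC and 0.614, 0.718 and 0.338 CPM in LLPC. Rank 5 differed from ranks 1 to 4 in that its WT libraries of LLPC, at 0.645 to 4.43 (median 2.91) CPM, overlapped those of ABC, at 2.42, 3.36, 0.604 and 2.50 CPM. Its CD23+ WT libraries held 11.3 to 33.2 (median 19.4) CPM. Rank 6 had 18.4 to 41.9 (median 30.04) CPM in CD23+ WT, 6.58, 4.34, 3.22 and 4.80 CPM in ABC WT and 0.156 to 1.52 (median 0.393) CPM in LLPC WT. By its group means, rank 6 repeated the order of ranks 1 to 4 in WT, with CD23+ highest and LLPC lowest.

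The cKO high libraries allowed a test of the subset difference on mice that had not chosen the members. In cKO high, 138 of the 150 members were lower in ABC than in CD23+, and 0 were higher (edgeR quasi-likelihood test, Benjamini-Hochberg adjusted p under 0.05 over 12359 features). Of all features tested, 15.2% were called lower and 19% higher in that comparison. The median log2 difference was -2.10 over the members and 0.02 over all features. Against LLPC, 138 members were lower than in CD23+ and 0 were higher, where 29.8% of all features were called lower and 32.1% higher, with a median of -2.88 over the members and 0.01 over all features. Both calls were made for 132 members, 6 were called in ABC alone, 6 in LLPC alone and 6 in neither. The CD23+ mean was the highest of the 3 cKO high means in all 150 members, and every CD23+ library lay above every ABC and LLPC library in 141 of them (20.4% of all features tested). In cKO high, ABC held a median of 22.8% of the CD23+ level and LLPC 7.03%. In bulk libraries such as these, fewer cells of a type and less RNA per cell cannot be told apart.

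The size of the LLPC difference depended on how libraries were scaled, because the edgeR fit used TMM, which centres the bulk of features. On total counts without TMM, the median of all features was lower in LLPC than in CD23+ by a log2 difference of -0.93 and lower than in ABC by -1.01, but differed by only 0.05 between ABC and CD23+. Without TMM, 148 members were lower in LLPC (62.4% of all features, with 14.6% higher) with a median of -3.80 and 0 higher, and 137 were lower in ABC (13.2%). CPM values and their percentages are on total counts, and log2 differences are after TMM.

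**Figure D2:**
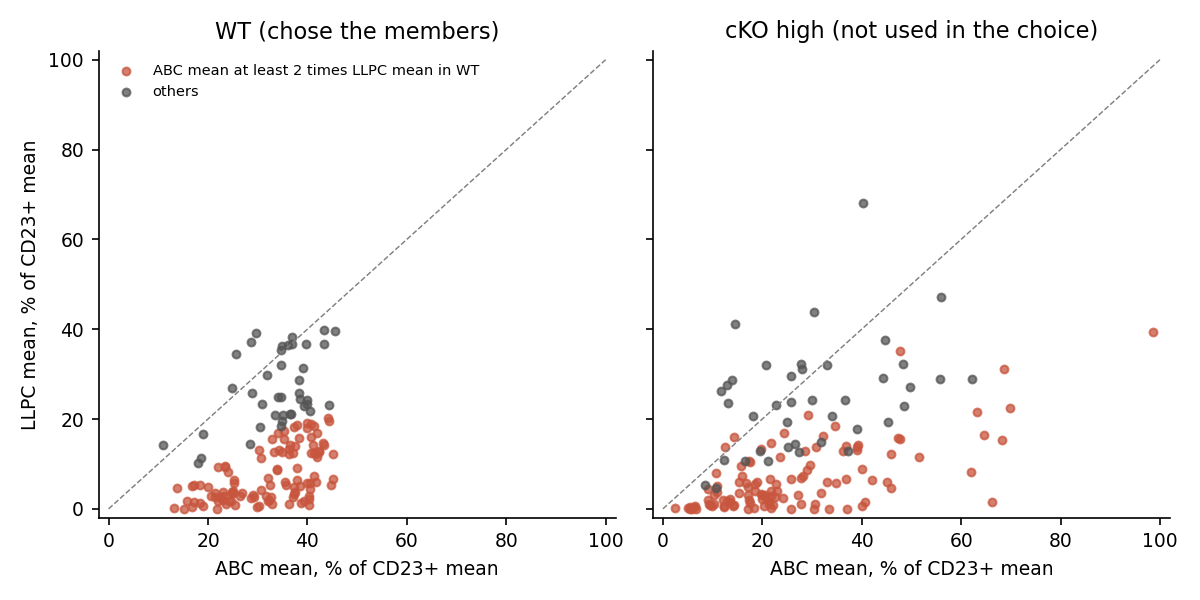
Mean level of each member in ABC (horizontal) and LLPC (vertical) as a percentage of its CD23+ mean, in WT (left) and in cKO high (right), on total counts. Each point is 1 of 150 members, coloured by whether the ABC mean was at least 2 times the LLPC mean in WT, and the dashed line marks equal levels. The median was 34.6% in ABC and 9.90% in LLPC for WT, and 22.8% and 7.03% for cKO high, where no limit was imposed.

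Members differed in which of the other subsets kept more of them. In WT, on total counts, 110 members had an ABC mean at least 2 times the LLPC mean, 0 had the reverse and 40 had neither. The share of all features in these classes was not counted, so the split only describes the members. In the cKO high libraries, 70 members were lower in LLPC than in ABC (24.9% of all features were called lower) and 19 were higher (25.7% called higher). Among the 110 members that kept more in ABC in WT, 70 were lower in LLPC, 2 were higher and 38 were not called, with a median log2 difference of -1.52. Among the other 40 members, 0 were lower, 17 were higher and 23 were not called, with a median of 0.54. The counts depended on TMM. On total counts, where the median of all features was itself shifted by -1.01, the 150 members gave 110 lower (67.3% of all features) and 6 higher (8.89%). There, 97 of the 110 members that kept more in ABC in WT were lower and 0 higher, with a median of -2.48. Among the other 40 members, 13 were lower and 6 higher on total counts, and the median changed sign to -0.43. All 70 lower calls after TMM were also called lower on total counts. Of the 19 higher calls, 6 were also called higher on total counts, 2 were called lower there and 6 in all turned to the lower side.

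Rank 44 had the most counts of all members in CD23+ cells and the lowest ratio of LLPC to ABC in WT. It had 1654 to 2031 (median 1942) CPM in CD23+ WT and 619, 475, 577 and 618 CPM in ABC WT. LLPC WT held 0.430 to 47.9 (median 3.33) CPM, with replicate 1 the highest and 3.67 CPM the next. In cKO high it had 1517, 1758 and 1779 CPM in CD23+, 304, 395 and 403 CPM in ABC and 0.768, 2.15 and 2.19 CPM in LLPC. LLPC was lower than ABC by edgeR (log2 difference -6.79, SE 0.253, adjusted p = 1.94e-11), and the libraries of the 3 subsets did not overlap. Rank 53 was 1177, 1054 and 898 CPM in CD23+ cKO high, 218, 249 and 201 CPM in ABC and 10.6, 11.5 and 12.995 CPM in LLPC (LLPC against ABC log2 difference -3.27, SE 0.159, adjusted p = 1.06e-10, edgeR). Rank 57 was 921, 1018 and 925 CPM, 276, 355 and 245 CPM and 7.83, 12.9 and 7.59 CPM in the same order of subsets. Rank 56 was 391, 408 and 434 CPM, 100.4, 93.7 and 83.8 CPM and 10.6, 12.4 and 10.6 CPM. For ranks 53, 56 and 57 alike, ABC kept an intermediate level and LLPC a low one, with no overlap among the 3 subsets.

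Some other members went the other way. After TMM, 19 of the 150 were called higher in LLPC than in ABC in cKO high, against 25.7% of all features. On total counts, 6 of the 19 were called higher. Rank 41 had 613, 560.1 and 469 CPM in CD23+ cKO high, 73.3, 79.2 and 57.9 CPM in ABC and 191, 145 and 118 CPM in LLPC. LLPC was thus above ABC in every library (log2 difference 2.09, SE 0.155, adjusted p = 1.82e-08, edgeR), and the log2 difference was 1.12 on total counts. In WT, rank 41 had 215, 157, 142 and 174 CPM in ABC and 93.1 to 198 (median 155) CPM in LLPC, which overlapped. Rank 107 had 54.6, 45.9 and 43.3 CPM, 9.78, 5.62 and 5.33 CPM and 20.6, 18.7 and 19.9 CPM in CD23+, ABC and LLPC of cKO high (log2 difference 2.39, SE 0.221, adjusted p = 1.6e-07 for LLPC against ABC, edgeR). It was among the 12 members not called lower in LLPC than in CD23+ (log2 difference -0.33, SE 0.186, adjusted p = 0.132), although on total counts its LLPC libraries lay below its CD23+ libraries. Rank 98 had 146, 127 and 123 CPM in ABC cKO high and 163, 169 and 123 CPM in LLPC cKO high. Its higher level in LLPC (log2 difference 1.17, SE 0.117, adjusted p = 4.38e-07, edgeR) was not called on total counts, where the log2 difference was 0.19. Ranks 82 and 88 completed the 3 members with the highest ratio of LLPC to ABC in WT, with means in cKO high of 32.6 ± 3.72 (SD, n = 3) CPM in ABC and 37.04 ± 17.01 (SD, n = 3) CPM in LLPC for rank 82. For rank 88 those means were 3.02 ± 1.45 (SD, n = 3) CPM and 5.43 ± 2.53 (SD, n = 3) CPM.

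At the low end, 2 members, ranks 9 and 39, had no count in any LLPC library, and 8 members had none in the 3 LLPC cKO high libraries. Rank 9 averaged 21.3 ± 10.3 (SD, n = 6) CPM in CD23+ WT. With 0 of the 43124964 counts of the 6 LLPC WT libraries, and a floor of 3 counts over the group (0.0696 CPM), rank 9 was at least 306.5-fold lower there. In cKO high, the bound from 3 of 18006344 counts was at least 119-fold. For rank 39, with 11.2 ± 2.00 (SD, n = 6) CPM in CD23+ WT, the bounds were at least 160-fold in WT and at least 49-fold in cKO high. These bounds are on total counts and cover counting error only, not the spread of the CD23+ libraries. With the 8 members at their bounds, the median log2 difference between LLPC and CD23+ over the members was -2.88. All 8 bounds lie below that median, so it could not change and this is no check of it.

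A block of 8 members, among ranks 2 to 38, fell within 9 consecutive ID numbers, and the remaining ID in that span averaged 8.37 CPM in CD23+ WT, under the level limit. The files do not say whether ID numbers follow genome position, or whether these features share reads. Their summed level ran from 219 to 277 CPM in CD23+ WT (median 238), from 35.7 to 55.4 CPM in ABC WT and from 6.59 to 26.3 CPM in LLPC WT (median 8.63). The ABC mean was 18.9% and the LLPC mean 4.72% of the CD23+ mean, both below the medians over all members. In cKO high the sum ran from 194 to 417 CPM in CD23+, with replicate 1 highest, from 23.6 to 47.6 CPM in ABC and from 2.69 to 5.22 CPM in LLPC. In CD23+ cKO low it ran from 178 to 335 CPM. Both cKO low replicate 2 and cKO high replicate 1 lay above every CD23+ WT library, and 1 library of each of these groups lay below every CD23+ WT library. Over the whole set, 25 members had another member within 2 ID numbers.

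Within CD23+ cells, 1 member was called in the 3 comparisons between genotype and disease groups. Between cKO high and cKO low, neither of which had chosen the members, edgeR called 0 of 150 (0% of 12542 features). At an unadjusted p under 0.05 there were 12 members (6.47% of all features), and DESeq2 called 0 (0.287%). The median log2 difference was 0.01, with quartiles of -0.17 and 0.24. Between cKO low and WT, edgeR called 0 members (0.0239% of all features in either direction), 2 passed an unadjusted p under 0.05 (2.39%), and DESeq2 called 0 (0.0399%). The median was -0.07. The CD23+ WT libraries chose the members, so comparisons with them are not independent of the choice.

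**Figure D3:**
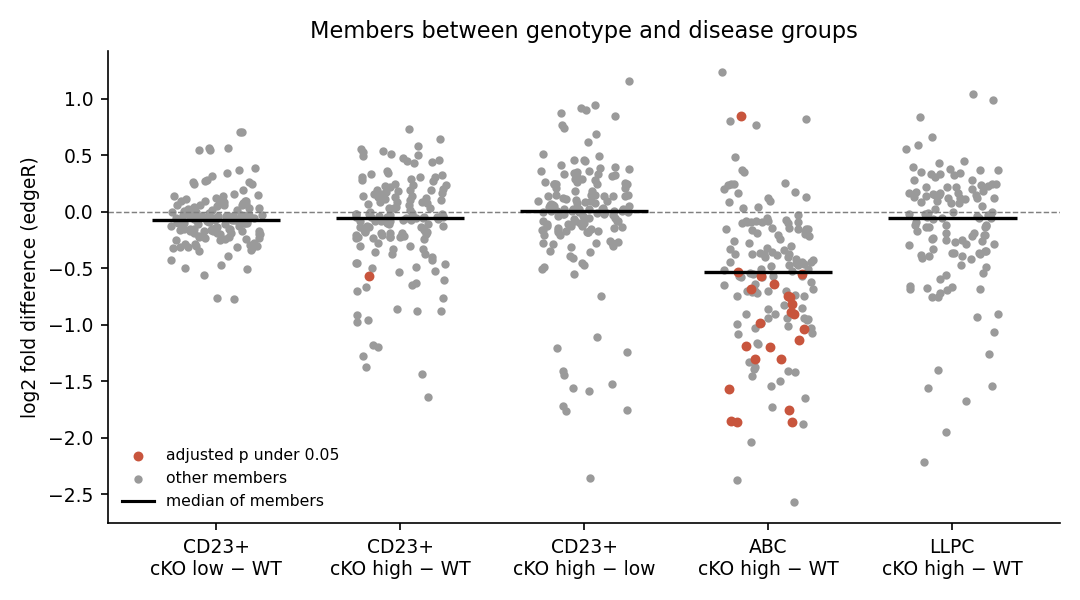
Log2 difference of each member in the 5 comparisons between genotype or disease groups within a subset (edgeR, after TMM). Each point is a member (150 in CD23+ and ABC, 121 in LLPC), red points have an adjusted p under 0.05, and the black line is the median. The median was -0.07, -0.05 and 0.01 in the 3 CD23+ comparisons, -0.53 in ABC and -0.06 in LLPC, and the comparisons with WT share libraries with the choice of members.

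Between cKO high and WT, 1 member was lower in CD23+ cells (0.0478% of all features were called lower). Rank 71 had 37.3 to 46.6 (median 41.04) CPM in WT, 36.98, 32.2 and 41.6 CPM in cKO low and 26.9, 30.6 and 25.3 CPM in cKO high (log2 difference -0.57, SE 0.115, adjusted p = 0.0311 for cKO high against WT, edgeR). The cKO high libraries did not overlap WT. Without CD23+ WT replicate 1, 2, 5 or 6 or cKO high replicate 1, edgeR called 0 members, and without WT replicate 3 it called 2. The median over all members was -0.05, 24 members passed an unadjusted p under 0.05 (10.9% of all features), and DESeq2 called 2 (1.1%).

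In ABC, 22 of the 150 members were lower in cKO high than in WT and 1 was higher. Summed over the members, ABC WT held 7895, 7475, 6460 and 7374 CPM and ABC cKO high held 5784, 6028 and 5146 CPM, without overlap. Of the 12714 features that edgeR tested, 0.59% were called lower and 0.543% higher. The median log2 difference was -0.53 over the members and -0.01 over all features, and 129 of 150 members lay on the lower side, against 51.7% of all features. The 22 made up 29.3% of the 75 features called lower in this comparison and 14.7% of the members. Their log2 differences ran from -1.86 to -0.54 with a median of -1.01, and all 22 had every cKO high library below every WT library. Over the members, 46 had that separation (5.7% of all features) and 2 had the reverse (6.17%). The ABC WT libraries had a part in the choice of members, and the 4 carry the same file-name numbers as 4 of the CD23+ WT libraries. The part of the choice in this difference was not tested. The 100 features that passed the limits of level and ratio but had lower scores gave 3 lower calls, 0 higher calls and a median of -0.27. Of these 100, 73 lay on the lower side. Their sum ran from 3383 to 4128 CPM in ABC WT and from 3011 to 3190 CPM in ABC cKO high, also without overlap. The mean sum in ABC cKO high was 80.5% of that in ABC WT for these 100, and 77.4% for the members.

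**Figure D4:**
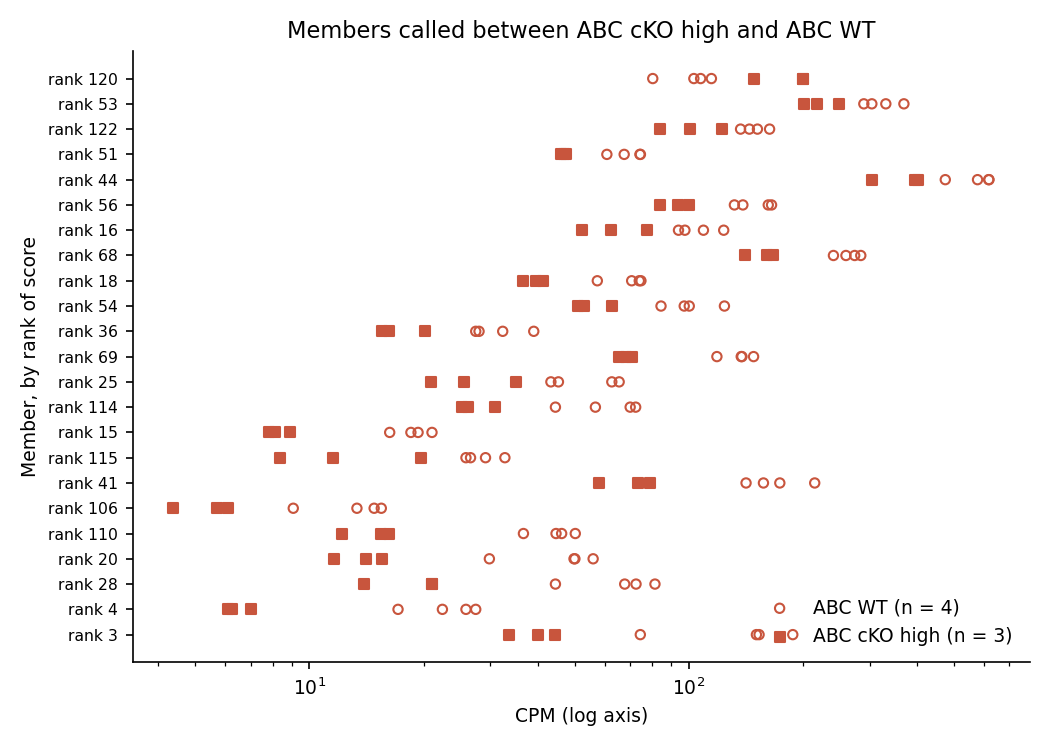
CPM of the 23 members called between ABC cKO high and ABC WT, on a log axis, ordered by log2 difference with the lowest at the bottom. Open circles are the 4 WT libraries and filled squares the 3 cKO high libraries. In 22 members all squares lay left of all circles, and rank 120, at the top, had the squares to the right.

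Rank 69 had 148, 138, 119 and 138 CPM in ABC WT and 70.98, 68.4 and 65.7 CPM in ABC cKO high (log2 difference -0.99, SE 0.104, adjusted p = 0.000363, edgeR). In CD23+ the same member had 342 to 404 (median 383) CPM in WT and 363, 359 and 363 CPM in cKO high. The groups separated in ABC and overlapped in CD23+. Rank 110 had 44.7, 50.2, 36.7 and 46.2 CPM in ABC WT and 16.3, 12.2 and 15.4 CPM in ABC cKO high (log2 difference -1.57, SE 0.165, adjusted p = 0.000363, edgeR). In CD23+ it had 93.97 to 121 (median 116) CPM in WT and 72.7, 80.4 and 102 CPM in cKO high, where 2 of 3 libraries were under the lowest WT library and the difference was not called (log2 difference -0.37, SE 0.114, adjusted p = 0.224, edgeR). Rank 41, described above for its level in plasma cells, had 215, 157, 142 and 174 CPM in ABC WT and 73.3, 79.2 and 57.9 CPM in ABC cKO high (log2 difference -1.30, SE 0.147, adjusted p = 0.000776, edgeR). Of the 6 highest ranks, ranks 3 and 4 were among the 22 (log2 differences -1.86 and -1.86), and ranks 1, 2, 5 and 6 were not called. Under 15 other settings, the call was kept in 8 for rank 3 and in 15 for rank 4. The log2 difference of rank 3 stayed between -2.06 and -1.71. Rank 1 stayed uncalled in 10 of the 13 settings that tested it.

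The opposite direction was called for rank 120 (MGP_BALBcJ_G0035981) alone. It had 115, 103, 80.4 and 108 CPM in ABC WT and 200.2, 199.7 and 149 CPM in ABC cKO high (log2 difference 0.85, SE 0.131, adjusted p = 0.00712, edgeR). In LLPC it had 24.96 to 38.2 (median 31.1) CPM in WT and 47.5, 50.8 and 42.4 CPM in cKO high, again without overlap but not called (log2 difference 0.84, SE 0.163, adjusted p = 0.751, edgeR). Its CD23+ libraries held 218 to 298 (median 238) CPM in WT, 273, 311 and 319.9 CPM in cKO low and 344, 271 and 235 CPM in cKO high. They overlapped between groups in CD23+ cells.

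The 22 members lower in ABC cKO high had in CD23+ cells a median cKO high to WT difference of -0.09 (log2), with a range from -0.53 to 0.15 and 0 called by edgeR. In that subset 16 of the 22 were on the lower side, and in LLPC 13 of the 21 that could be tested. The count of calls in ABC was sensitive to single libraries. It fell from 22 lower to 12 without WT replicate 1, 14 without WT replicate 4, 10 without cKO high replicate 1 and 10 without cKO high replicate 3, while the median over all members stayed between -0.56 and -0.48 across all 15 alternatives. DESeq2 called 36 lower and 3 higher (3.48% of all features in either direction).

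In LLPC, 121 of the 150 members had enough counts to test, and edgeR called 0 between cKO high and WT (0.00852% of 11739 features in either direction). At an unadjusted p under 0.05 there were 8 (4.6% of all features), DESeq2 called 1 (0.0256%), and the median was -0.06, against -0.02 over all features. Whether the cKO high difference itself differed between subsets was tested over all 28 libraries. These tests, like the LLPC comparison above, include the WT libraries that chose the members and so are not independent of the choice. For ABC minus CD23+, edgeR called 0 members (0% of 14123 features), 39 passed an unadjusted p under 0.05 (4.98% of all features), and DESeq2 called 4 (0.149%). The median was -0.46 over the members and 0.02 over all features, and rank 69 came closest (log2 difference -0.92, SE 0.168, adjusted p = 0.0572, edgeR). For LLPC minus CD23+, edgeR called 0 (0.00708%), 22 passed an unadjusted p under 0.05 (10.1%), DESeq2 called 0 (0.375%), and the median was -0.06. No single member was thus called for a difference between subsets in its cKO high effect by edgeR after TMM.

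Most members were steady across the CD23+ WT libraries. The coefficient of variation (CV, the SD divided by the mean) had a median of 15.9% and was under 20% in 92 members. The steadiest were rank 123 with 139 ± 4.64 (SD, n = 6) CPM, rank 11 with 24.7 ± 0.910 (SD, n = 6) CPM and rank 68 with 750.0 ± 28.3 (SD, n = 6) CPM. Another 18 members had a CV over 50%, a limit set after the values were seen. The 3 most variable were rank 136 with 4.81 to 56.5 (median 9.94) CPM in CD23+ WT, rank 146 with 9.19 to 91.1 (median 22.8) CPM and rank 96 with 5.85 to 35.4 (median 7.39) CPM. All 3 were highest in CD23+ WT replicate 6. Without CD23+ WT replicate 6, the median CV over the members was 15.9%, 94 members were under 20% and 11 were over 50%, of which 10 were among the 18.

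**Figure D5:**
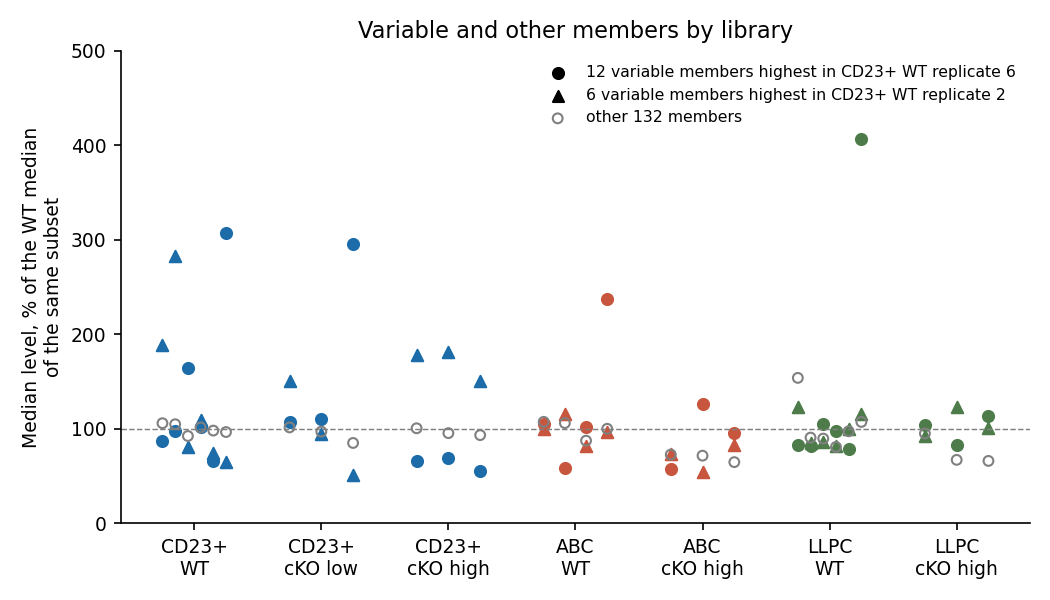
Median level in each library, as a percentage of the WT median of the same subset, of the 12 variable members highest in CD23+ WT replicate 6 (filled circles), the 6 highest in CD23+ WT replicate 2 (triangles) and the other 132 members (open circles). The 12 stood at 307% in CD23+ WT replicate 6, 296% in CD23+ cKO low replicate 3, 237% in ABC WT replicate 4 and 407% in LLPC WT replicate 6, and the 6 stood at 150% to 181% in the CD23+ cKO high libraries.

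The 18 variable members fell into 2 patterns. In CD23+ WT, 12 were highest in replicate 6 and the other 6 (ranks 46, 59, 88, 89, 94 and 127) in replicate 2. That division was made after the values were seen and uses the CD23+ WT libraries, so the levels there are a description. Without CD23+ WT replicate 6, the CV stayed over 50% in 4 of the 12 and in all 6 of the others, with medians of 42.1% and 62.5%. CD23+ WT replicate 6, ABC WT replicate 4 and LLPC WT replicate 6 carry the same number in their file names, read here as the animal. Of the 12, ABC WT replicate 4 was the highest of 4 libraries in 9 and LLPC WT replicate 6 the highest of 6 in 12. In LLPC WT the median of the 12 was 407% of the WT median in replicate 6 and 79% to 105% in the other 5 libraries. CD23+, ABC and LLPC WT replicates 2 also share a number. Of the 6, ABC WT replicate 2 was highest in 4 and LLPC WT replicate 2 in 1, and the median of the 6 was 115% in ABC WT replicate 2 and 85.3% in LLPC WT replicate 2.

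Rank 96, one of the 12, had 2.54, 1.19, 1.61 and 15.3 CPM in ABC WT and 0.215 to 13.2 (median 1.33) CPM in LLPC WT, with 1.56 CPM the next below the highest. Rank 136 repeated this, with 5.89, 3.36, 4.23 and 19.7 CPM in ABC WT and 0.779 to 14.7 (median 1.69) CPM in LLPC WT. In cKO low, CD23+ replicate 3 was the highest library for all 12, with 6.42, 11.3 and 46.1 CPM for rank 96 and 8.42, 21.3 and 68.04 CPM for rank 136 over the 3 replicates. The 6 others were lowest in that library by their median (51.03% of the WT median) and all were highest in cKO low replicate 1. The file-name number of CD23+ cKO low replicate 3 directly precedes the number shared by the WT libraries that were high for the 12. All other numbers, those of cKO high included, are lower. For the 12, number and cKO high group can therefore not be fully told apart. Rank 94, one of the 6, had 15.9 to 91.9 (median 25.9) CPM in CD23+ WT, 51.5, 25.8 and 11.6 CPM in cKO low and 74.1, 70.03 and 51.5 CPM in cKO high.

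In CD23+ cKO high, the 12 stood at 54.8% to 69.4% of the WT median over the 3 libraries and the 6 at 150% to 181%. Against cKO low, edgeR called 0 of the 18. The log2 difference had a median of -1.54 over the 12 (all on the lower side) and 0.89 over the 6 (all on the higher side), against 0.02 over the other 132 members. Without CD23+ cKO low replicate 3, these medians were -0.67 and 0.56. Against WT, 0 of the 18 were called, with medians of -1.07 and 0.45, and of -0.64 and 0.31 without CD23+ WT replicate 6, where 2 of the 6 turned to the lower side. In ABC, cKO high against WT had medians of -0.53 over the 12 and -0.51 over the 6, with 0 called. Without ABC WT replicate 4, the median of the 12 was 0.09. Of the 12 members not called lower in ABC than in CD23+ in cKO high, 8 were among the 18.

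With CD23+ WT replicate 6, ABC WT replicate 4 and LLPC WT replicate 6 left out of the choice, 131 of the 150 members were chosen again. The newly chosen 150 gave 137 members lower in ABC and 138 lower in LLPC than in CD23+ in cKO high, and 23 called between ABC cKO high and WT. These counts moved by at most 1 from those of the set described here, with 131 members shared by both sets. With ABC WT replicate 4 left out of the test itself, the lower calls in ABC fell, as given above. Without CD23+ WT replicate 6 alone, 136 members were chosen again. The part of the larger number of features with a count in CD23+ WT replicate 6 in these levels was not tested.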

How the data were processed

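The authors deposited 1 table of raw whole-number read counts for each library, as the files show. FastQC, STAR 2.7.1a and featureCounts are the tools named in the submitters' processing notes. Per the labels' protocols, RNA from sorted cells was prepared with a QIAGEN RNeasy Micro kit and a Takara SMARTer Pico V3 kit. The sources used here give no genome build, strand setting or use of molecular identifiers. Near-identical or overlapping features may therefore share reads, and intervals and floors cover counting error only. All 40303 IDs have the prefix MGP_BALBcJ_G, and 0 matched the mouse annotation used here, so gene lists, lengths and sequences were not used here.

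Members were chosen in CPM on plain library totals by the rule given in the results. The members and the lists were chosen with earlier results of these data known. Described singly were ranks 1 to 6, up to 3 called members with the smallest adjusted p per comparison and direction, and the 3 members at each end of the LLPC to ABC ratio in WT and of the CV in CD23+ WT. Ranks 9, 39, 94 and the other variable members listed were named after their values were seen.

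Differences were tested from the counts in R 4.3.3 with edgeR 4.0.16 (filterByExpr, TMM, robust dispersions, two-sided quasi-likelihood test, Benjamini-Hochberg adjustment over all features tested, called at an adjusted p under 0.05). The SE of a log2 difference is its absolute value divided by the square root of the F statistic of that test. Fits used the 9 cKO high libraries, the 12 CD23+, 7 ABC or 9 LLPC libraries, or all 28 for the difference between effects. DESeq2 1.42.0, another scaling, other filters, a replicate block and each library left out in turn were alternatives. The scripts were tested on simulated data.

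Libraries are biological replicates per the labels. File names carry a number which, read as the animal, gives 12 animals and pairs the cKO high libraries of the 3 subsets. Deviations from the group means of these same-numbered pairs correlated from 0.00973 to 0.0776 across features. The block by animal changed no count there by over 1.5 times.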

Additional observations from a re-analysis of the deposited data

Results flagged for a closer look

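In 84 checks of WT groups of 4 or 6 libraries, 15 found a library further from its nearest neighbour than Dixon's 95% limit allows. Chance gives about 1 in 20, or 4.2 of 84 if the checks were independent, which they are not. Each value below is the gap to the nearest library divided by the range of the group.

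LLPC WT replicate 1 was high for members that plasma cells otherwise held at low levels. The gap was 0.679 for rank 1, a value near the floor of the counts (0.395 against 0.127 CPM). It was 0.913 for rank 3 (15.3 CPM against 1.84 CPM in the next library), 0.634 for rank 56 and 0.932 for rank 44 (47.9 against 3.67 CPM). For rank 11 it was 0.901, and for the sum of the 8 members with neighbouring ID numbers 0.758 (26.3 against 11.4 CPM). Over all 150 members, LLPC WT replicate 1 held a median of 11.6% of the CD23+ WT mean, against 5.93% to 10.3% in the other 5. Without that library, all 150 members were chosen again.

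The gap was 0.742 for the median level of the 18 variable members in CD23+ WT replicate 6. The 18 were chosen for their spread over the CD23+ WT libraries, so that gap follows from the choice and supports nothing. In LLPC WT replicate 6, which shares its number, the gap was 0.940, and the members that were high there were mainly the 12 highest in CD23+ WT replicate 6. For rank 136 it was 0.846 in ABC WT replicate 4 and 0.856 in LLPC WT replicate 6, and for rank 96 it was 0.905 and 0.897. Rank 110 was also highest in LLPC WT replicate 6, with a gap of 0.642 (61.8 against 23.8 CPM).

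For rank 6, LLPC WT replicate 3 was highest, with a gap of 0.632 (1.52 against 0.658 CPM). For rank 44, CD23+ WT replicate 2 was lowest, with a gap of 0.723 (1654 against 1927 CPM).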

How the results depend on the processing

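Of 194 comparisons of a count of members with its value under another setting, 172 stayed within 1.5 times. The 172 include comparisons with a count of 0 under both settings, where no ratio can be formed. Leaving out 1 library at a time gave 130 to 150 members chosen again, 131 to 138 lower in ABC and 132 to 137 lower in LLPC than in CD23+, 77 to 91 called between LLPC and ABC, 10 to 27 called between ABC cKO high and WT, and 0 to 2 between CD23+ cKO high and WT. It gave 0 in the other comparisons. The called members of ABC cKO high against WT numbered 23 as reported, 50 with no filter, 39 with DESeq2 and 11 with the replicate block. The number pairs different animals there, and the correlations of same-numbered deviations ran from -0.0516 to 0.0737. Between CD23+ cKO high and WT the count was 1 as reported, 8 with no filter, 2 with DESeq2, and 0 with the replicate block or with all 28 libraries in 1 fit. With no filter, 1 member was called between CD23+ cKO high and cKO low. In LLPC, DESeq2 called 1 member and the fit of all 28 libraries 1. For the ABC minus CD23+ difference of effects, DESeq2 called 4 and total counts without TMM 1. The cause of these shifts was not tested. Rank 2 in ABC cKO high against WT was 0.13 as reported, -0.000468 with the replicate block and -0.74 to 0.48 over the 7 fits that left out 1 library, with -0.74 without cKO high replicate 1. Rank 5 was -0.09 as reported, 0.19 with the block, 0.12 without WT replicate 2, 0.26 without cKO high replicate 3 and -0.36 without cKO high replicate 2. The choice of members kept 147 with a score offset of 0.5 CPM, 132 with 5 CPM, 133 with group medians and 129 with TMM-scaled CPM. Members scarce in LLPC (29 not tested there) and the smallest library, with 2133489 counts, limit what could be detected in LLPC and ABC. Leaving out the 3 libraries of 1 number and dropping TMM were alternatives chosen after seeing the data.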
